A study of Mus musculus with 5 samples.

Results

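The genes described here encode enzymes that build the galactolipids of myelin and the very-long-chain fatty acids they carry. They are Ugt8a, Fa2h, Gal3st1, Cers2, Elovl1, Elovl7, Sptlc2, Degs1, Aspa and Fasn, 10 of the 55471 gene identifiers in the count table. They were matched by symbol through the GRCm38 annotation. All 10 had enough counts to be tested, with 613 to 10064 counts per gene and library.

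Messenger RNA was measured in spinal cords from male C57BL/6J mice, 3 months old and at rest, with 3 libraries of wild type (WT, Lhx1os +/+) and 2 of knockout (KO, Lhx1os -/-) mice. The targeted gene, Lhx1os, makes a long non-coding RNA, and the study's title describes the line as a model with altered motor neurons and poorer locomotion. In the KO line, made by Cas9 editing of fertilised eggs with a single guide RNA, a synthetic polyadenylation signal followed by polymerase-destabilising elements was inserted into the second exon of Lhx1os. Such a signal is meant to end transcription early, and the labels give no number of founder lines. Totals ran from 15973063 to 19437533 counts per library. Lhx1os stood at a mean of 3.28 CPM (SD 0.124, n = 3; CPM are counts scaled to library size) in WT and of 0.742 CPM (SD 0.0776, n = 2) in KO, and the KO libraries lay below all WT libraries (log2 fold change −2.13, SE 0.28, adjusted p = 0.0589 in edgeR). The mature oligodendrocyte genes Mbp, at 15414 to 17991 CPM, and Mobp, at 3881 to 4731 CPM, were abundant in all 5 libraries.

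Myelin differs from other membranes in its high content of galactosylceramide and of its sulfated form, sulfatide, both made by oligodendrocytes in the central nervous system and by Schwann cells in nerves. Serine palmitoyltransferase starts the sphingoid base, ceramide synthases attach a fatty acid, and a desaturase completes ceramide. The transferase encoded by Ugt8a then adds galactose, and the sulfotransferase encoded by Gal3st1 adds sulfate. The fatty acids come from fatty acid synthase, are lengthened by elongases, and many are hydroxylated by the enzyme encoded by Fa2h before they enter ceramide. Aspa cleaves the neuronal metabolite N-acetylaspartate in oligodendrocytes, which frees acetate for lipid synthesis.

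The promoters of 3 genes are shown because Ugt8a was the gene of the highest level per length and because Fasn and Sptlc2 were those whose KO and WT libraries did not overlap. Each line gives the 250 bases before the RefSeq start in GRCm38.p6, read 5′ to 3′ on the strand of the gene. Capitals mark the CCAAT box (CCAAT) and the GC box (GGGCGG), searched on both strands (ATTGG and CCGCCC on the other strand), and matches may overlap.
Ugt8a, chr3:125938653-125938902, minus strand: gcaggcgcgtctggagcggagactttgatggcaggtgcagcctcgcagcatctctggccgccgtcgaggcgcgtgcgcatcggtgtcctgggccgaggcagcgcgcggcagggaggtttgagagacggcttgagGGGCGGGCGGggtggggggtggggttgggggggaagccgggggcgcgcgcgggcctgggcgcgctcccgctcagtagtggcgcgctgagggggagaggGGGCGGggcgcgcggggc
Fasn, chr11:120824548-120824797, minus strand: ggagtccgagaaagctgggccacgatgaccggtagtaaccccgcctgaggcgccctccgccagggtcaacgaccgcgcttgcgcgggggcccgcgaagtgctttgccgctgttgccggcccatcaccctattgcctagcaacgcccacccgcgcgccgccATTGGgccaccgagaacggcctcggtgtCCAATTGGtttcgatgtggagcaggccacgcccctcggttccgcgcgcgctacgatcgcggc
Sptlc2, chr12:87388356-87388605, minus strand: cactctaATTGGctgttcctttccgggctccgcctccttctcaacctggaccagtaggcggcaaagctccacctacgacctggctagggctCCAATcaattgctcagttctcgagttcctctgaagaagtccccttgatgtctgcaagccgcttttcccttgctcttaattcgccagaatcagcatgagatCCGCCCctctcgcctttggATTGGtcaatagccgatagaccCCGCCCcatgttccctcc
The Ugt8a window held 3 GC boxes and no CCAAT box, the Fasn window 3 CCAAT boxes and no GC box, and the Sptlc2 window 3 CCAAT boxes and 2 GC boxes. In the Fasn window the first pair of CCAAT boxes on opposite strands overlapped, 59 and 62 bases before the start. Among all 32851 such windows of the mouse RefSeq table, 33.8% held a CCAAT box and 32.7% a GC box. Of the 10 genes, 9 had an entry in that table, and Fa2h did not. GC content was 76.8% for Ugt8a, 69.2% for Fasn, 55.2% for Sptlc2 and 38.8% for Aspa, against a median of 52.4% over all windows. The letters ACAAT, the core bound by SOX factors such as the oligodendrocyte factor Sox10, stood in 27.7% of all windows, 3 times in the Aspa window, once in each of 2 overlapping Gal3st1 windows (184 and 199 bases before their starts) and not in the 3 windows shown. A relaxed sterol response element (TCACNCCAC) was in none of the windows of these genes and in 1.05% of all windows, and a match or its absence in these letters says nothing of binding.

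Levels per exon length were compared in RPKM, the CPM of a gene divided by its exon length in kilobases. Ugt8a stood highest at 80.1 ± 9.07 RPKM (SD over the 5 libraries), followed by Fa2h at 70.5 ± 3.34, Degs1 at 50.5 ± 3.16, Cers2 at 47.9 ± 1.74 and Fasn at 46.9 ± 4.43. Elovl1 at 19.5 ± 1.18, Gal3st1 at 18.9 ± 0.777, Elovl7 at 16.5 ± 2.08 and Aspa at 13.0 ± 0.842 formed a lower tier, and Sptlc2 was lowest at 7.02 ± 0.226 RPKM. The levels fell into blocks: the lowest library of Fa2h lay above the highest of Degs1, the lowest of Fasn above the highest of Elovl1, and the lowest of Aspa above the highest of Sptlc2. Within the blocks neighbours overlapped, and Cers2 exceeded Fasn in 2 of the 5 libraries. Ugt8a exceeded Fa2h in 5 of 5 libraries although their ranges over libraries overlapped. RPKM compares genes only as far as the annotated exons are the ones used in this tissue.

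Between genotypes, none of the 10 genes passed. In edgeR's quasi-likelihood test 0 of 10 reached an adjusted p of 0.05 over the 16052 genes tested, where 0.0187% of all genes did, and 1, Fasn, had an unadjusted p under 0.05, against 7.57% of all genes. DESeq2 and limma-voom also called 0 of 10, each with 1 gene, Fasn, at an unadjusted p under 0.05. That count of 1 rested on single libraries: it was 0 without WT replicate 3, KO replicate 1 or KO replicate 2, 2 without WT replicate 1 and 3 without WT replicate 2, and it was 2 with the replicate number as a block and 3 with an oligodendrocyte covariate. The log2 fold changes of KO over WT ran from −0.14 to 0.19, with 4 above 0 and 6 below, and their median was −0.03, beside 0.0044 over all genes tested. KO and WT did not overlap for 2 of the 10 (24.9% of all genes), Fasn above (12.9% of all genes were above in this way) and Sptlc2 below (12% of all genes).

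**Figure D1:**
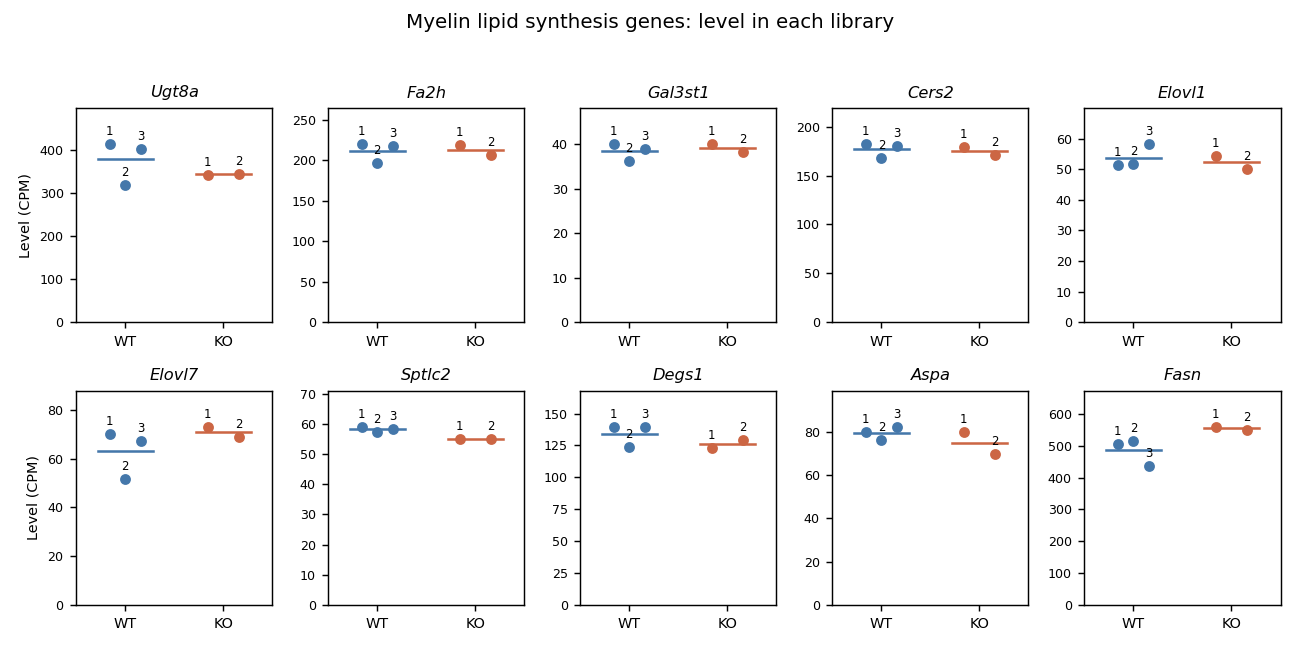
Level of each of the 10 genes in CPM (vertical axis, starting at 0) in the WT and KO libraries; each point is 1 library with its replicate number and the horizontal line is the group mean. Fasn is the gene with both KO libraries above all WT libraries (560.0 and 549.6 against 437 to 514 CPM), and WT replicate 2 is the lowest library for Ugt8a, Fa2h, Gal3st1, Cers2 and Elovl7.

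Ugt8a, Fa2h and Gal3st1 make the galactolipids themselves, and none of them passed. Ugt8a (ENSMUSG00000032854, chromosome 3 from 125865271 to 125938619, minus strand) had 413, 318 and 401 CPM in WT and 342 and 344 CPM in KO. The KO libraries lay close together and inside the WT range, above WT replicate 2 and below the other WT libraries. Its log2 fold change was −0.14 (SE 0.10; adjusted p = 0.764, edgeR), with a 95% interval from −0.36 to 0.08. WT replicate 2 weighed most on this value: without it the log2 fold change was −0.25 (adjusted p = 0.278), and without WT replicate 1 it was −0.07.

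Fa2h (ENSMUSG00000033579, chromosome 8 from 111345135 to 111393824, minus strand), which encodes the hydroxylase that gives myelin lipids their 2-hydroxy fatty acids, had 220.3, 197 and 218 CPM in WT and 219 and 207 CPM in KO. Its groups overlapped, and its log2 fold change was 0.01 (SE 0.07; adjusted p = 0.986, edgeR). The 95% interval, −0.14 to 0.16, corresponds to a change between −9.24% and 11.5%. Gal3st1 (ENSMUSG00000049721, chromosome 11 from 3983636 to 3999326, plus strand), the gene of the sulfotransferase that makes sulfatide, had 40.0, 36.2 and 38.8 CPM in WT and 40.0 and 38.3 CPM in KO. Both KO libraries again lay inside the WT range, and the log2 fold change was 0.03 (SE 0.08; adjusted p = 0.943, edgeR; 95% interval −0.14 to 0.20). Fa2h and Gal3st1 took the opposite sign without WT replicate 2 (−0.04 and −0.01) and without KO replicate 1 (−0.03 and −0.0030).

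Ratios within a library do not depend on its scaling. The log2 ratio of Gal3st1 to Ugt8a was −3.37, −3.14 and −3.37 in WT and −3.09 and −3.16 in KO, so KO replicate 1 alone lay above every WT library. The ratio of Fa2h to Ugt8a was −0.91, −0.69 and −0.88 in WT and −0.64 and −0.73 in KO. In both ratios WT replicate 2 stood with the KO libraries and apart from the other WT libraries. With 3 libraries against 2 the groups overlapped, and no test was made on these ratios, which were chosen after the values were seen.

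None of the ceramide-building genes passed. Sptlc2 (ENSMUSG00000021036, chromosome 12 from 87305058 to 87388355, minus strand), a catalytic subunit of serine palmitoyltransferase, had 59.1, 57.4 and 58.3 CPM in WT and 55.1 and 55.1 CPM in KO. Both KO libraries were lower than all WT libraries, but the gap was small against the variation that edgeR estimates for genes of this level: the log2 fold change was −0.08 (SE 0.06; adjusted p = 0.780). Its 95% interval ran from −0.22 to 0.06, and with any 1 library left out the value stayed between −0.09 and −0.07. Over the 5 libraries Sptlc2 had a coefficient of variation of 3.21%, at percentile 10.1 of the genes with a mean of at least 10 CPM.

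Cers2 (ENSMUSG00000015714, chromosome 3 from 95314791 to 95323599, plus strand), the ceramide synthase that uses very-long-chain acyl groups, had 182, 168 and 180.4 CPM in WT and 179 and 171 CPM in KO. The KO libraries lay inside the WT range, and the log2 fold change was −0.01 (SE 0.06; adjusted p = 0.976, edgeR; 95% interval −0.15 to 0.13). Exons of Cers2 share 75 bases with Setdb1 and 144 bases with the antisense gene 6330562C20Rik, 2.04% and 3.92% of its exon length; since the strand setting of the counting is not given in the sources used here, a small part of its reads is uncertain. Degs1 (ENSMUSG00000038633, chromosome 1 from 182275772 to 182282804, minus strand), the desaturase that turns dihydroceramide into ceramide, had 139.7, 124 and 139 CPM in WT and 123 and 129 CPM in KO. WT replicate 2 stood with the KO libraries, and the log2 fold change was −0.09 (SE 0.07; adjusted p = 0.787, edgeR; 95% interval −0.25 to 0.07).

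The elongases had fold changes of opposite sign. Elovl1 (ENSMUSG00000006390, chromosome 4 from 118428093 to 118432953, plus strand), which lengthens saturated and monounsaturated very-long-chain fatty acids, had 51.4, 51.8 and 58.3 CPM in WT and 54.3 and 50.2 CPM in KO. Its groups overlapped, and its log2 fold change was −0.04 (SE 0.08; adjusted p = 0.917, edgeR; 95% interval −0.22 to 0.13). Its exons share 53 bases, 1.94% of their length, with Cdc20 on the opposite strand. Elovl7 (ENSMUSG00000021696, chromosome 13 from 108214404 to 108285683, plus strand), an elongase enriched in oligodendrocytes, had 70.0, 51.8 and 67.2 CPM in WT and 73.1 and 68.9 CPM in KO.

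KO replicate 1 of Elovl7 lay above all WT libraries, KO replicate 2 lay below WT replicate 1, and WT replicate 2 was far below the rest. The log2 fold change of Elovl7 was 0.18 (SE 0.11; adjusted p = 0.747, edgeR), the widest interval of the 10 genes at −0.08 to 0.43, and it was 0.05 without WT replicate 2. Elovl7 was also the most variable of the 10 genes, with a coefficient of variation of 12.6% over the libraries, followed by Ugt8a at 11.3% and Fasn at 9.46%. The log2 ratio of Elovl7 to Elovl1 was 0.45, 0 and 0.20 in WT and 0.43 and 0.46 in KO; WT replicate 2 held 1014 counts of each. These groups overlapped as well.

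Aspa and Fasn supply acetate and new fatty acids, and had fold changes of opposite sign. Aspa (ENSMUSG00000020774, chromosome 11 from 73304992 to 73329596, minus strand) had 79.9, 76.0 and 82.3 CPM in WT and 80.0 and 69.6 CPM in KO. The KO libraries parted, with KO replicate 1 inside the WT range and KO replicate 2 below it. Its log2 fold change was −0.09 (SE 0.08; adjusted p = 0.809, edgeR), moving to −0.19 when KO replicate 1 was left out and to 0.01 when KO replicate 2 was.

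Fasn (ENSMUSG00000025153, chromosome 11 from 120805846 to 120824547, minus strand), the gene of the enzyme that builds palmitate, had 505, 514 and 437 CPM in WT and 560.0 and 549.6 CPM in KO. Both KO libraries lay above all WT libraries, and the WT libraries averaged 485 CPM (SD 42.2, n = 3) against 555 CPM for the KO libraries (SD 7.38, n = 2). The log2 fold change was 0.19 (SE 0.07), with a 95% interval from 0.03 to 0.36, at an unadjusted p of 0.0260 and an adjusted p of 0.626 (edgeR), which did not pass. It was 0.12 without WT replicate 3, the lowest library, and 0.24 without WT replicate 2. The log2 ratio of Fasn to Aspa was 2.66, 2.76 and 2.41 in WT and 2.81 and 2.98 in KO, without overlap. Fasn already parted in this way by itself, so the ratio is not a separate observation. No test was made on this ratio, and the groups of the other ratios given above overlapped.

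Fasn is also abundant in fat, so adipocyte markers were read beside it. The 8 adipocyte markers summed to 12.7, 8.33 and 5.66 CPM in WT and to 42.0 and 3.69 CPM in KO. The defining markers Adipoq, Plin1 and Cfd had 44, 36 and 79 counts in KO replicate 1, where Fasn stood at 560.0 CPM. They were at 0 counts both in KO replicate 2, with Fasn at 549.6 CPM, and in WT replicate 3, with the lowest Fasn level, 437 CPM. Of the other markers, Car3, Fabp4 and Cidec had 50, 6 and 2 counts in KO replicate 2 and 82, 5 and 2 in WT replicate 3. Lep had 0 counts in all libraries. Without KO replicate 1 the log2 fold change of Fasn was 0.18, and the part of adipocytes in it was not tested.

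**Figure D2:**
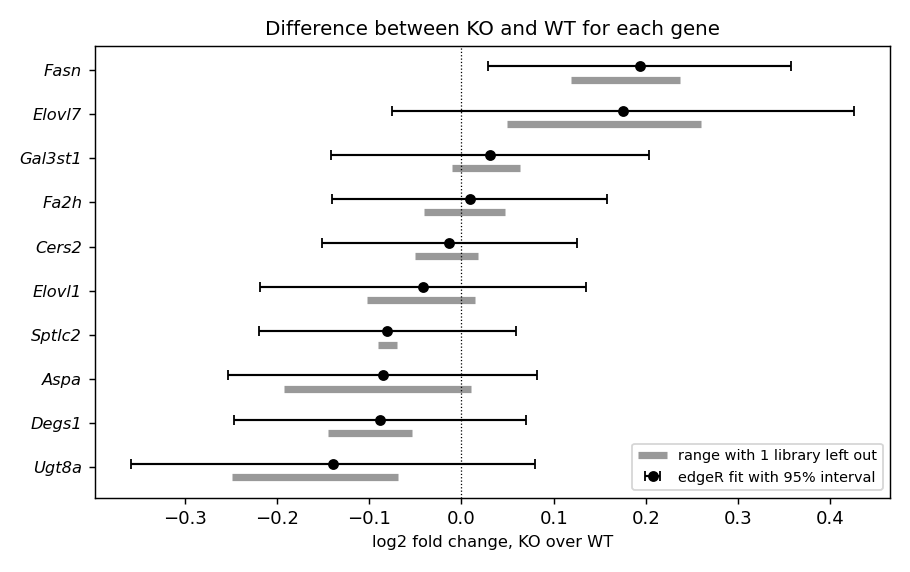
Log2 fold change of KO over WT for the 10 genes (horizontal axis) from edgeR with its 95% interval (black), and the range when each library is left out in turn (grey bars). Fasn has an interval above 0 (0.03 to 0.36) before adjustment over all genes, and the other 9 intervals include 0.

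The intervals bound the size of a change these libraries would leave room for. For Fa2h, Cers2 and Gal3st1 they ran from −9.24% to 11.5%, from −9.94% to 9.06% and from −9.33% to 15.1%. For Ugt8a the interval allowed a level up to 22.0% lower in KO, and for Elovl7 a level up to 34.3% higher. These are intervals for single genes without adjustment for the number of genes.

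Much of the spread of these genes lay within the WT group. WT replicate 2 was the lowest library for 5 of the 10 genes and WT replicate 1 the highest for 6. Taken as the mean log2 CPM of the 10 genes less its WT average, the libraries stood at 0.06, −0.09 and 0.04 in WT and 0.03 and −0.03 in KO, so both KO libraries lay inside the WT range. The 20 other mature oligodendrocyte genes gave 0.08, −0.08 and 0.01 in WT and 0.01 and −0.01 in KO, the same order of the WT extremes. In whole cord, fewer oligodendrocytes and less RNA per oligodendrocyte cannot be told apart. Schwann cells of nerve roots also make these lipids, and the 12 Schwann cell markers summed to 214, 365 and 434 CPM in WT and 257 and 381 CPM in KO, lowest in WT replicate 1 and highest in WT replicate 3. The part of either cell type in these levels was not tested.

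The 10 genes were also set against the 20 oligodendrocyte genes of the same library. The log2 level of Ugt8a less the oligodendrocyte mean, relative to WT, was 0.07, −0.15 and 0.09 in WT and −0.15 and −0.12 in KO. For Elovl7 it was 0.09, −0.19 and 0.10 in WT and 0.21 and 0.15 in KO, so that KO now lay above all WT libraries. Fasn stayed above (−0.01, 0.17 and −0.16 in WT, 0.20 and 0.19 in KO), and Sptlc2 stayed below, joined by Degs1 (−0.02, −0.03 and 0.05 in WT, −0.14 and −0.04 in KO). Degs1 parted narrowly, with WT replicate 2 at −0.033 and KO replicate 2 at −0.040. The share of all genes that part on this scale was not computed, so these counts have no background beside them. With this oligodendrocyte mean as a covariate in edgeR, 0 of the 10 passed, and the smallest adjusted p was 0.506, for Fasn and Elovl7.

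**Figure D3:**
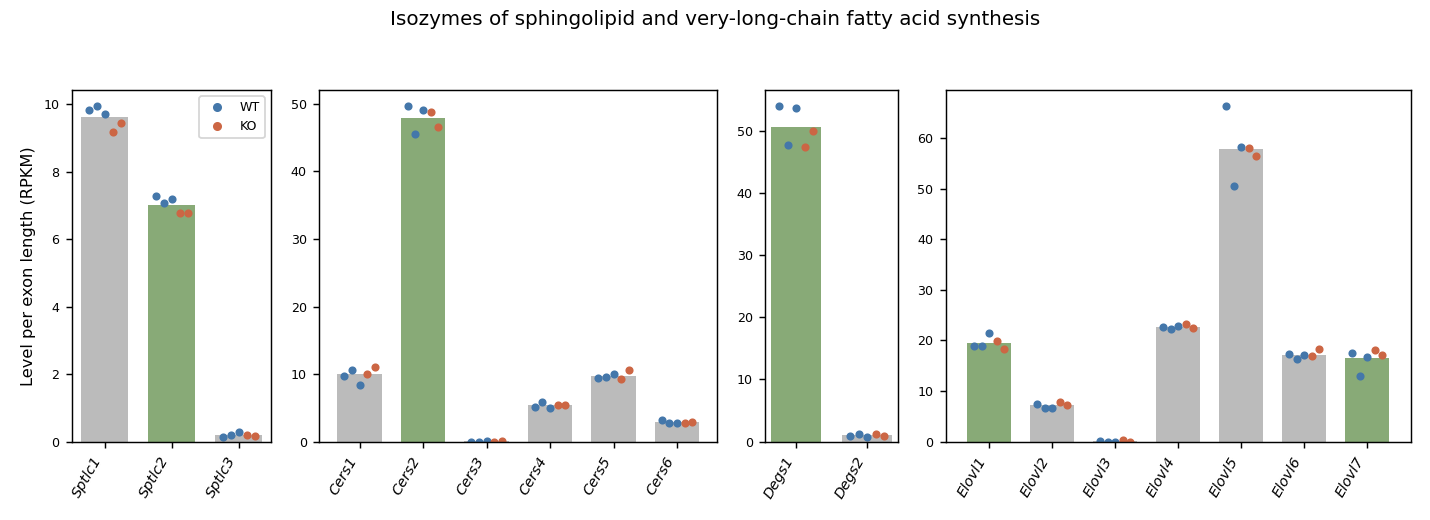
Level per exon length in RPKM (vertical axes, each starting at 0) of the isozymes of 4 families; bars are means over the 5 libraries, points are single libraries, and green bars are among the 10 genes. Cers2 and Degs1 lead their families (63.1% and 98.0% of the summed RPKM), while Elovl5 leads the elongases.

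The isozymes of each step showed which family members carry the transcript in this tissue. Degs1 made up 98.0% of the RPKM of its family (97.3% to 98.5% over libraries), and Degs2, which also makes phytoceramide, the remainder. Cers2 made up 63.1% of the 6 ceramide synthases (60.9% to 65.0%), ahead of Cers1, the synthase of neurons, at 13.1% and Cers5 at 12.8%; Cers3, a gene of skin and testis, had 13 counts in all. In serine palmitoyltransferase, Sptlc1 stood at 9.63 ± 0.300 RPKM and Sptlc2 at 7.02 ± 0.226 RPKM (SD over the 5 libraries), and Sptlc3 at 0.190 ± 0.0589 RPKM was too low to be tested. Sptlc1 and Sptlc2 form a joint enzyme. Sptlc1, like Sptlc2, was lower in both KO libraries (9.19 and 9.46 RPKM) than in the WT libraries (9.82, 9.94 and 9.71 RPKM). Of all genes tested 12% lay below in this way. The log2 fold change of Sptlc1 was −0.08 (SE 0.07, adjusted p = 0.824 in edgeR), which did not pass. Sptlc2 took 41.1% to 42.3% of the family in every library.

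Among the 7 elongases Elovl1 and Elovl7 made up 13.9% and 11.7% of the RPKM. Elovl5, which acts on polyunsaturated fatty acids, led with 41.0% (57.9 ± 5.64 RPKM), and Elovl4, needed for ultra-long fatty acids, followed with 16.1%. Elovl3 had 15 counts in all. No test was made on the shares.

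**Figure D4:**
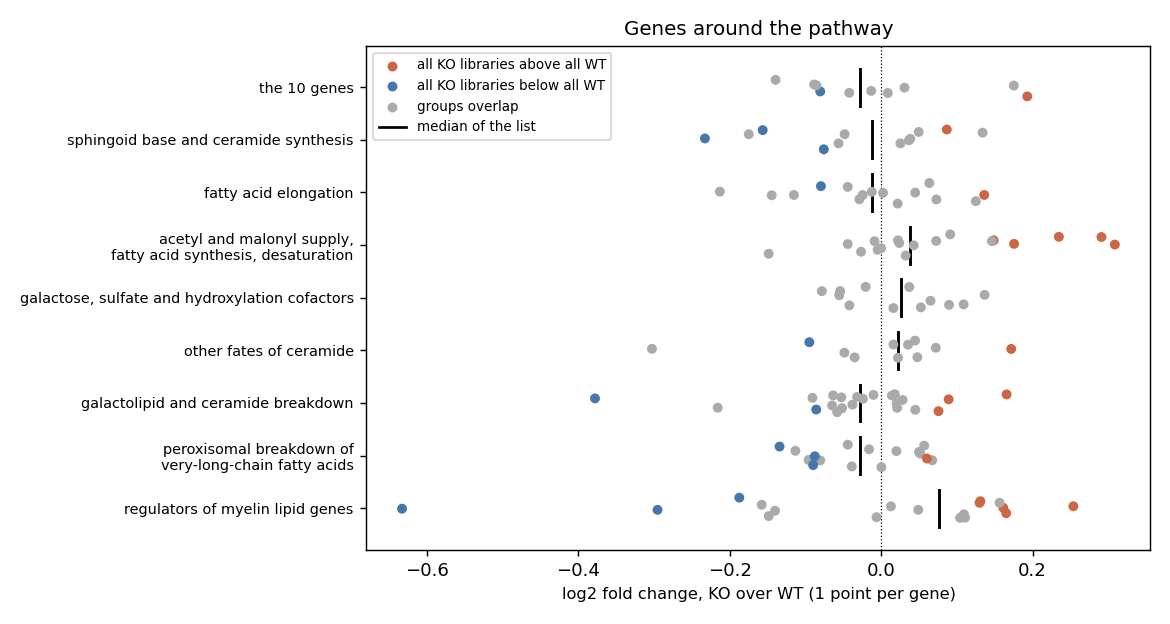
Log2 fold change of KO over WT (horizontal axis) for the 10 genes and for 8 lists of related genes, 1 point per gene tested; the black bar is the list's median and colour shows whether all KO libraries lay above or below all WT libraries. The points on the right of the row for acetyl and malonyl supply are Acacb, Srebf1 and Slc25a1.

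Around the 10 genes, 128 further genes of the pathway were read from the fit across all genes, and 124 had enough counts. In edgeR 0 of 124 passed over all genes, as with DESeq2 and limma-voom. At an unadjusted p under 0.05 there were 7 higher in KO (5.65%, against 3.49% of all genes) and 4 lower (3.23%, against 4.07%). The median log2 fold change was 0.02, with 67 above 0 and 57 below. All values that follow are from edgeR, and none passed the adjusted threshold.

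The list of acetyl and malonyl supply, fatty acid synthesis and desaturation held 5 of those 7. Of its 18 genes 13 had a log2 fold change above 0, with a median of 0.04 (0.0044 over all genes), and 5 had KO above WT without overlap (27.8%, against 12.9% of all genes). Srebf1, the transcription factor that drives fatty acid synthesis genes, had 92.1, 99.5 and 87.5 CPM in WT and 116 and 111 CPM in KO, which gave 0.29 on the log2 scale (SE 0.07; adjusted p = 0.342). Slc25a1, the carrier that exports mitochondrial citrate for fatty acid synthesis, had 75.8, 68.3 and 67.4 CPM in WT and 82.4 and 83.6 CPM in KO (0.23, SE 0.07; adjusted p = 0.508). Acacb, an acetyl-CoA carboxylase of the mitochondrial membrane, had 16.7, 16.3 and 17.6 CPM in WT and 22.6 and 19.1 CPM in KO (0.31, SE 0.11; adjusted p = 0.586). In these 3 genes every KO library exceeded every WT library. They were named for the smallest p-values of the list, so this parting follows in part from the choice. Acacb was at 0.18 without KO replicate 1, the library high in adipocyte markers, and at 0.42 without KO replicate 2. The part of adipocytes in these genes was not tested. Other genes of the list, named after their values were seen, had overlapping groups. They were Acly (0.09, SE 0.10), Acaca (0.04, SE 0.07), Scd1 (−0.01, SE 0.09), Fads1 (−0.0046, SE 0.06) and Fads2 (−0.03, SE 0.06).

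Nat8l, the neuronal enzyme that makes the N-acetylaspartate cleaved by Aspa, had 874, 850.1 and 741 CPM in WT and 931 and 925 CPM in KO (0.18, SE 0.07; adjusted p = 0.647). Of 10 neuronal markers 9 had a log2 fold change above 0 (51.3% of all genes tested did), with a mean log2 CPM, relative to WT, of 0.10, −0.04 and −0.06 in WT and 0.16 and 0.08 in KO; their part in Nat8l was not tested. Srebf2, the factor of cholesterol synthesis genes, named after its value was seen as the remaining gene of the 5, stood at 0.15 (SE 0.06; adjusted p = 0.626). Scd2, the main stearoyl-CoA desaturase of brain and the most abundant gene of the list, averaged 4193 CPM over the WT libraries (SD 220.3, n = 3) and 4258 CPM over the KO libraries (SD 77.9, n = 2), and its fold change on the log2 scale was 0.02 (SE 0.07). Both KO libraries of Scd2 lay inside its WT range.

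**Figure D5:**
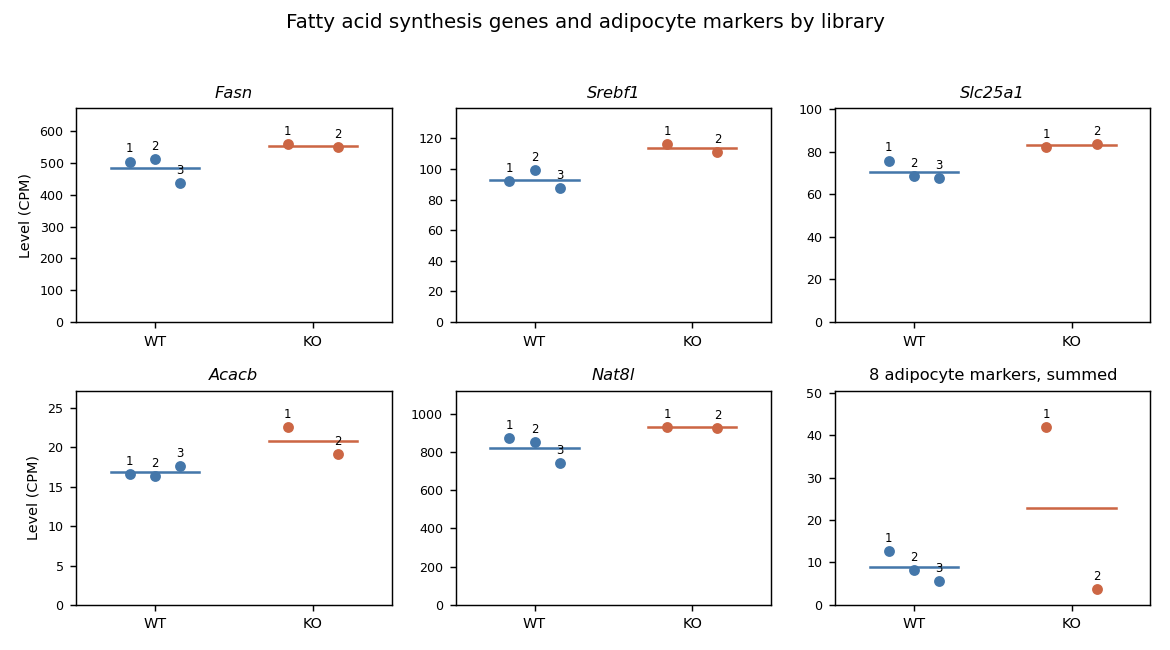
Level in CPM (vertical axes, starting at 0) of Fasn and of 4 genes of fatty acid supply, and the summed level of 8 adipocyte markers, in each library; points carry replicate numbers and lines are group means. The 5 genes shown are among those whose KO libraries lie above all WT libraries, as for 12.9% of all genes. Of the 18 genes in the list of acetyl and malonyl supply, 5 part in this way. The adipocyte sum is high in KO replicate 1 (42.0 CPM) and lowest in KO replicate 2 (3.69 CPM).

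Sphingoid base and ceramide synthesis had 6 genes above 0 and 6 below, with a median of −0.01 and none at an unadjusted p under 0.05. Its smallest p-values belonged to Sptssa, a small activating subunit of serine palmitoyltransferase (−0.17, SE 0.10), and to Ormdl1 (−0.23, SE 0.14) and Ormdl3 (0.09, SE 0.07), which restrain that enzyme. Ormdl2, the remaining restraining gene, named after its value was seen, stood at −0.16 (SE 0.14). Ormdl1 and Ormdl2 had both KO libraries below all WT libraries and Ormdl3 above. In the whole list 3 of 12 genes were below in this way (25%, against 12% of all genes) and 1 above. Cers4, its most abundant gene, stood at 0.03 (SE 0.07).

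In fatty acid elongation 7 genes were above 0 and 8 below, with a median of −0.01. KO lay above all WT libraries for 1 of the 15 genes tested and below for 1 (6.67% each, against 12.9% and 12% of all genes). Tecr, the reductase that completes each round of elongation, had 521, 509 and 513 CPM in WT and 566 and 565 CPM in KO, without overlap (0.14, SE 0.05; unadjusted p = 0.0286, adjusted p = 0.636). The dehydratase gene Hacd2 stood at −0.14 (SE 0.09). The elongase gene Elovl2, at 0.13 (SE 0.09), was near Tecr in size and of the same sign. Hacd2 and Elovl2 both had overlapping groups. Acsl6, an acyl-CoA synthetase of neurons and astrocytes, was at 0.05 (SE 0.08).

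The list of galactose, sulfate and hydroxylation cofactors had a median of 0.03, 7 genes above 0 and 5 below, and no gene whose groups parted. Slc35b2, which carries the sulfate donor into the Golgi, stood at 0.11 (SE 0.09), Papss1, which makes that donor, at −0.05 (SE 0.06), and Galt, of galactose metabolism, at 0.09 (SE 0.09). Cyb5b (0.05, SE 0.06) and Cyb5r3 (0.04, SE 0.07), of the cytochrome b5 electron chain, were its most abundant genes. Across this list, none of the 12 genes had an unadjusted p under 0.05.

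Genes for other fates of ceramide had a median of 0.02, with 7 above 0 and 4 below. Of these 11 genes, KO lay above all WT libraries for 1 and below for 1 (9.09% each, against 12.9% and 12% of all genes). Sgms1, a sphingomyelin synthase, had 49.0, 56.7 and 60.4 CPM in WT and 50.1 and 39.6 CPM in KO, overlapping through WT replicate 1 (−0.30, SE 0.11; unadjusted p = 0.0234, adjusted p = 0.624). Leaving out KO replicate 1 gave −0.48, and leaving out KO replicate 2 gave −0.15. B4galnt1, of complex ganglioside synthesis, was above WT in both KO libraries (0.17, SE 0.08) and B4galt6, a lactosylceramide synthase, below in both (−0.09, SE 0.06). Gltp, a glycolipid transfer protein gene, stood at −0.05 (SE 0.06) and the ceramide transfer protein gene, listed as Col4a3bp, at −0.03 (SE 0.07).

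Of the 22 tested genes of galactolipid and ceramide breakdown 9 were above 0 and 13 below, with a median of −0.03. In 3 genes KO lay above all WT libraries (13.6%, against 12.9% of all genes) and in 2 below (9.09%, against 12%). Acer2, a Golgi ceramidase, had 14.5, 14.3 and 15.7 CPM in WT and 12.9 and 9.81 CPM in KO (−0.38, SE 0.14; unadjusted p = 0.0204, adjusted p = 0.618), lower in both KO libraries and lowest in KO replicate 2; leaving out KO replicate 1 gave −0.59, and leaving out KO replicate 2 gave −0.19. Sphk2, a sphingosine kinase, stood at 0.17 (SE 0.08) and Smpd2, a neutral sphingomyelinase, at −0.22 (SE 0.12), or −0.35 and −0.097 without KO replicates 1 and 2. Psap, the precursor of the saposins that help lysosomal hydrolases, was at 0.03 (SE 0.06).

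Peroxisomal breakdown of very-long-chain fatty acids had 7 genes above 0 and 9 below, a median of −0.03 and none at an unadjusted p under 0.05. Hsd17b4, the bifunctional enzyme of the peroxisomal pathway, stood at −0.09 (SE 0.07) and Scp2, the thiolase and sterol carrier gene, at −0.11 (SE 0.09).

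Regulators of myelin lipid genes had a median of 0.08, with 11 above 0 and 7 below, and 5 of the 18 had KO above WT without overlap (27.8%, against 12.9% of all genes) and 3 had KO below (16.7%, against 12%). Insig1, which holds the sterol-sensing complex in the endoplasmic reticulum and is itself a target of sterol response factors, had 143, 122 and 134 CPM in WT and 161 and 156 CPM in KO, without overlap (0.25, SE 0.07; adjusted p = 0.476). Ppara, a nuclear receptor of fatty acid oxidation, had 2.56, 2.55 and 2.52 CPM in WT and 1.90 and 1.38 CPM in KO (−0.63, SE 0.26; adjusted p = 0.647). Zfp24, a zinc finger factor of oligodendrocyte differentiation, stood at −0.19 (SE 0.08), lower in both KO libraries, and Qk, whose RNA-binding protein acts on myelin transcripts, at −0.16 (SE 0.08) with overlap. Myrf, the factor that drives myelin genes, averaged 266 CPM over the WT libraries (SD 20.8, n = 3) and 265 CPM over the KO libraries (SD 4.61, n = 2), and its fold change on the log2 scale was −0.01 (SE 0.07).

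The genes whose profile over the 5 libraries was most like that of Ugt8a were 1700052K11Rik, Irak3, Anapc10, Galnt4 and Klhl28. They were the nearest of 14857 genes outside the 10 with a mean of at least 1 CPM, at Euclidean distances of 0.06 to 0.08 between centred log2 CPM values. Their WT means were 5.10, 3.11, 10.9, 10.3 and 37.4 CPM, far below the 377 CPM of Ugt8a, and likeness over 5 libraries is a description only.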

How the data were processed

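Messenger RNA was measured in 5 spinal cord libraries, 3 WT and 2 KO, grouped by their titles. The authors deposited raw read counts per Ensembl gene, without normalization. Per the submitters' processing notes they used cutadapt, Trimmomatic, STAR 2.5.2b, HTSeq and GRCm38; neither the annotation release nor the strand setting is stated in the labels. No label says that libraries came from separate litters or days, so p-values measure only how these samples vary, possibly for technical reasons. Replicates differed by more than counting noise (chi-square per degree of freedom 4.01 to 7.47).

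Symbols, coordinates and exon lengths came from GENCODE M21, which matched 55230 of 55471 identifiers, and 1 list symbol was matched through a RefSeq synonym. Promoter sequences are RefSeq's (GRCm38.p6). Counts were filtered with filterByExpr (minimum count 10, total 15; 16052 genes left), scaled by TMM and tested by edgeR's quasi-likelihood F test (edgeR 4.0.16, R 4.3.3), with Benjamini-Hochberg adjustment over all genes at 0.05. The standard error is the log2 fold change divided by the square root of F, and 95% intervals use the test's degrees of freedom. Log2 CPM has a prior count of 2. The fit was tested on simulated data. Alternatives used other size factors, filters and dispersion, DESeq2 1.42.0, limma-voom 3.58.1, a replicate block, an oligodendrocyte covariate and each library left out.

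The 10 genes and all lists were chosen with earlier results of these data known. Named from each pathway list were the 3 genes of smallest p and the 2 most abundant, and from the oligodendrocyte, Schwann cell and adipocyte markers up to 3 of the most abundant. Some genes this rule named are not reported here. Genes of like pattern were the 5 nearest to Ugt8a.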

Additional observations from a re-analysis of the deposited data

How the results depend on the processing

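None of the 10 genes and none of the 124 other pathway genes passed under any of the 13 alternatives, all planned. Over all genes edgeR called 3; the count was 6 with DESeq2's size factors, 96 without a filter on low counts, 12 with robust dispersion, 40 with DESeq2, 1 with limma-voom, 25 with the replicate block, 11 with the oligodendrocyte covariate, and 0 (without KO replicate 1) to 58 (without WT replicate 1) with 1 library left out. The cause was not tested. The labels do not say whether same-numbered WT and KO libraries are pairs. Their deviations correlated across genes at 0.0579 and 0.0020. With 2 KO libraries the KO deviations are mirror images, and WT replicate 1 gave −0.0579 with KO replicate 2. These correlations therefore cannot decide whether the libraries are paired. WT replicate 3 has no KO library of its number, so in the block fit it adds nothing to the difference between KO and WT. That fit therefore cannot separate an effect of pairing from the loss of WT replicate 3. Leaving this library out without a block also put Fasn at 0.12. With the replicate block Fasn was at 0.12 (adjusted p = 0.815), the median of the 10 genes was 0.0097 in place of −0.03, and these log2 fold changes took the opposite sign: Cers2 0.0023, Elovl1 0.017, Cers4 −0.011, Mobp −0.012, Drp2 0.054 and Prx 0.31. Prx did so with limma-voom (0.045) and with the covariate (0.027).

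With each library left out in turn, the median of the 10 genes ran from −0.06 to 0.01, and leaving 1 KO library assumes that it varies like WT. The sign changed within these ranges: Aspa −0.19 to 0.011, Cers2 −0.050 to 0.018, Elovl1 −0.10 to 0.014, Fa2h −0.041 to 0.047, Gal3st1 −0.011 to 0.063, Acsl6 −0.045 to 0.13, Cers4 −0.018 to 0.091, Col4a3bp −0.063 to 0.015, Cyb5r3 −0.0077 to 0.082, Gltp −0.12 to 0.012, Scd2 −0.0058 to 0.066, Myrf −0.073 to 0.032, Mbp −0.095 to 0.015, Mobp −0.052 to 0.094, Drp2 −0.22 to 0.099, Prx −0.42 to 0.28, Car3 −0.80 to 1.495 and Fabp4 −2.76 to 2.62. Car3 passed without KO replicate 2 (adjusted p = 0.0429). Ugt8a, Elovl7, Sptlc2, Degs1 and Fasn kept their sign under all 13. Sizes were less stable than signs for Sgms1 (−0.48 to −0.15), Acer2 (−0.59 to −0.19), Smpd2 (−0.35 to −0.097), Acacb (0.18 to 0.42), Hacd2 (−0.24 to −0.062), Scp2 (−0.20 to −0.027) and Elovl2 (0.046 to 0.20) with 1 library left out. With 2 KO libraries, differences of the size seen here were not separable from the spread between libraries.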

Other observations

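Of 13 oligodendrocyte precursor genes 9 had a log2 fold change below 0, with a median of −0.17, and 6 had an unadjusted p under 0.05 in edgeR, all lower in KO (46.2%, against 4.07% of all genes); 0 passed the adjusted threshold and the smallest adjusted p was 0.0603. Their mean log2 CPM, relative to WT, was −0.06, 0.01 and 0.04 in WT and −0.15 and −0.23 in KO, so that both KO libraries lay lower. The 20 mature oligodendrocyte genes had 10 above 0 and 10 below and a median of −0.01; the difference between the lists was not tested. Mobp, a myelin protein gene, stood at 0.01 (SE 0.08) and Mbp at −0.04 (SE 0.08), both with overlapping groups.

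The 9 meningeal fibroblast genes summed to 213, 415 and 488 CPM in WT and 260 and 273 CPM in KO. All 9 had a log2 fold change below 0, while 51.3% of all genes tested had one above 0. The groups overlapped for 7, and KO lay below all WT libraries for 2 (22.2%, against 12% of all genes). Like the Schwann cell genes (median −0.22, 2 above 0 and 10 below), the meningeal fibroblast genes were lowest in WT replicate 1. Skeletal muscle genes summed to 7.08, 6.28 and 3.57 CPM in WT and 17.7 and 6.00 CPM in KO, high in the library that was also high in adipocyte markers. Median log2 fold changes were −0.12 for 10 astrocyte genes, −0.04 for 10 microglia genes, 0.03 for 8 endothelial genes and 0.13 for 10 neuronal genes, and none of these genes passed.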
